A study of Drosophila melanogaster with 4 samples.

Results

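The genes hid, grim and rpr start programmed cell death in Drosophila melanogaster and lie together in a gene-poor stretch of chromosome arm 3L. TATA-binding protein (TBP) was mapped there by chromatin immunoprecipitation and sequencing (ChIP-seq) of embryos. Members were taken as all listed TBP peaks with any overlap with 3L 18150000 to 18440000 on FlyBase release 5, a span of 290 kb. This gave 12 peaks, out of 1436 on 3L and 7769 in the whole list. The rule for members uses position and no peak value, but the span was proposed with earlier results of these data known.

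The embryos were labelled as 0 to 8 h old, of the strain Exd-GFP-13T and the genotype w; PBac{y[+]-attP-3B}VK00033, with sex unknown. By this description, all carried a transgene of the genomic coding region of extradenticle (exd), a homeodomain gene, in which GFP replaces the stop codon. The series has 2 libraries of chromatin precipitated with a crude rabbit polyclonal antiserum against Drosophila TBP, and 2 libraries of input DNA from embryos with the same labels. The extraction text describes instead an 8 to 16 h collection from y; bw cn sp flies, cross-linked in 1.8% formaldehyde for 15 min, and which description applies is not known. Whole embryos were used, so the cells behind a peak cannot be named. One list of peaks serves all 4 libraries. Read depth is unknown, no value has a replicate error, and no test between conditions was possible.

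TBP is the subunit of TFIID that binds the TATA box, and TFIID helps to bring RNA polymerase II to core promoters. In yeast and mammals, TBP is also found in the initiation factors of RNA polymerases I and III. The proteins Hid, Grim and Reaper (the product of rpr) share a short motif at their amino terminus. Through it they bind Diap1, an inhibitor of apoptosis that otherwise holds caspases in check, and so release those proteases. Sickle, the product of the neighbouring gene skl, has a motif of the same kind. In the embryo, a deletion that removes hid, grim and rpr together blocks nearly all developmental cell death. Transcription of these genes is a main point of control: rpr responds to DNA damage through p53 and to the steroid hormone ecdysone, while hid is restrained by Ras signalling.

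In the RefSeq gene table of release 6, ordered by gene start, hid (Dmel_CG5123) is followed by grim (Dmel_CG4345), rpr (Dmel_CG4319) and skl (Dmel_CG13701). Between hid and grim the table lists 9 genes, of which 4 code for protein (CG7320, CheA75a, CG5103 and CG13700). Between grim and rpr it lists 3 genes and between rpr and skl 1, and none of these codes for protein. The table belongs to another release than the peaks. It was used for names and order only, so no peak below is tied to a gene or a promoter.

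TBP peaks filled the span unevenly. The first 8 lay within 106 kb at its low-coordinate side, none lay in the next 125 kb, and the last 4 lay within 42.5 kb at the other side. The last 4 included both strong peaks of the span, with scores of 154.94 and 190.26. No peak of the first 8 scored above 57.37. The score is the authors' own value for each peak, deposited with no scale, and it is used here only to rank peaks within this list.

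**Figure D1:**
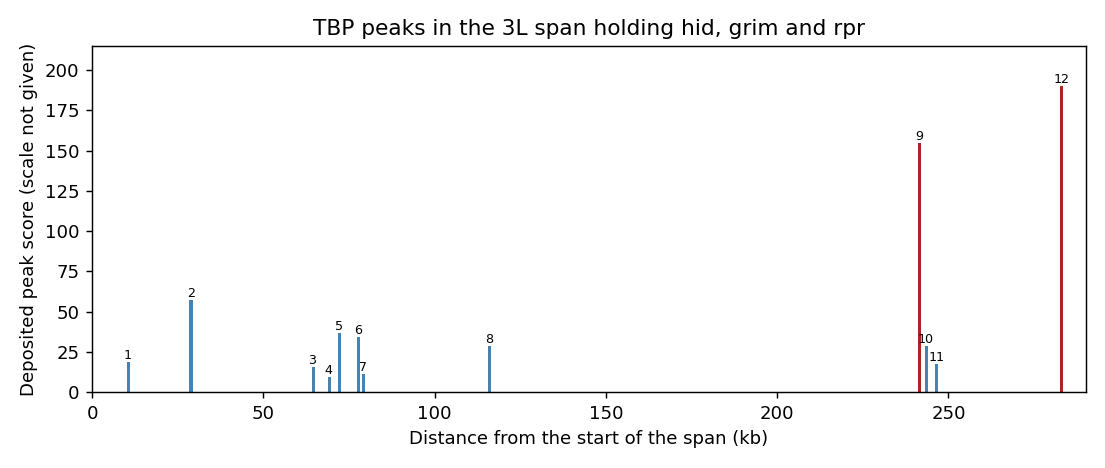
TBP peaks across the 3L span that holds hid, grim and rpr. The x axis is the distance from the start of the span in kb, the bar height is the deposited score, bars are numbered 1 to 12 in order and drawn at least 0.9 kb wide, and red marks scores of at least 150. Peaks 9 and 12 stand at 154.94 and 190.26, and a stretch of 125 kb without a peak separates peak 8 from peak 9.

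Peaks 1 and 2 stood alone at the low-coordinate side. Peak 1, at 3L 18160132 to 18160506, was 375 bp wide and scored 19.04. Peak 2, at 18178411 to 18179567, was the widest of the 12, at 1157 bp, and its score of 57.37 was the third highest. It ranked at position 352 among the 1436 peaks of 3L by score. The distance between these peaks was 17.9 kb, and 34.6 kb without a peak followed peak 2. Each therefore stood apart from any other listed peak by at least 17.9 kb.

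A group of 5 peaks came next, within 15.2 kb. Peaks 3 and 4, at 18214209 to 18214424 and 18218810 to 18219015, were the narrowest of the span, at 216 and 206 bp, close to the narrowest in the list (201 bp). Peak 3 scored 15.4. Peak 4 had the lowest score of the 12, at 9.36, where 6 was the lowest in the list. Peak 5, at 18221720 to 18222599, was 880 bp wide and scored 36.5. Peak 6, at 18227261 to 18227935, was 675 bp wide and scored 34.29. Peak 7, at 18228676 to 18229365, began 740 bp beyond the end of peak 6 and was of nearly the same width, at 690 bp, but scored 11.52. Peaks 6 and 7 thus differed far more in score than in width.

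Peak 8, at 18265447 to 18266170, was the most isolated of the 12. It was 724 bp wide and scored 28.43, near the middle of the 3L scores. A stretch of 36.1 kb without a peak lay before it and 125 kb after it.

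Peak 9, at 18390960 to 18391889, ended the long empty stretch. Its score of 154.94 was a 3L rank of 19, shared with a wider peak elsewhere on the arm, and it was 930 bp wide. Peak 10, at 18393103 to 18393545, followed after 1213 bp with a width of 443 bp and a score of 28.43. Peak 11, at 18396158 to 18396649, followed after 2612 bp with a width of 492 bp and a score of 17.68. The 3 together spanned 5.69 kb, with the score falling away from peak 9.

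Peak 12, at 18432469 to 18433455, was the strongest of the span. Its score of 190.26 was a 3L rank of 7 and a rank of 115 in the whole list, and it was 987 bp wide. It stood alone, with 35.8 kb free of peaks before it and 20.0 kb after it.

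Peak 12 ended 6545 bp inside the upper bound of the span, and peak 1 began 10132 bp inside the lower bound. The nearest peaks outside were at 18132230 to 18132600 (score 18.36, 371 bp wide) and at 18453488 to 18454032 (score 20.44, 545 bp wide), 17400 bp and 13488 bp from the bounds.

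The median score and width of the 12 peaks lay close to those of the rest of 3L. Their median score was 28.43 (95% interval of the median from order statistics 15.4 to 57.37), against 27.63 over the other 1424 peaks of 3L. Their median width was 682.5 bp (375 to 930), against 729 bp. Scores under 20 were held by 5 of 12, where 36.6% of 3L peaks scored so low. Widths under 500 bp were found in 5 of 12, where the share on 3L was 35.3%. With 12 peaks, both shares are near the background. None of the 12 reached a width of 1500 bp, as 16.7% of 3L peaks did. With so few peaks, this too is not far from the background.

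At the upper end of the scores, 2 of 12 peaks reached the 90th percentile of 3L, where the background was 10.2%. With 12 peaks, this share too is near the background. The same 2 scored at least 150, as 21 of the 1436 peaks of 3L did (1.46%). These 2 were also narrow for their score. Among those 21 peaks the median width was 2004 bp, and only peaks 9 and 12 were under 1000 bp. The next narrowest of the 21 measured 1159 bp and scored 236.72. Seen from the width, 77 peaks of 3L were 900 to 1000 bp wide, with a median score of 40.9, and peaks 12 and 9 had the highest and the second highest score among them. The third highest was 148.44. These first 2 ranks follow from the count above, since no other peak under 1000 bp scored at least 150. The limits of 150 and 1000 bp and the band of 900 to 1000 bp were chosen after the values had been seen. Neighbouring limits give a less exclusive picture. Of the 49 peaks of 3L scoring at least 120, 6 were under 1000 bp, and of the 96 scoring at least 100, 15 were. Each of these sets held 2 peaks of the span, and the 10 peaks scoring at least 180 held 1. On the 5 long arms together (2L, 2R, 3L, 3R and X), 11 of 156 peaks scoring at least 150 were under 1000 bp (7.05%).

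**Figure D2:**
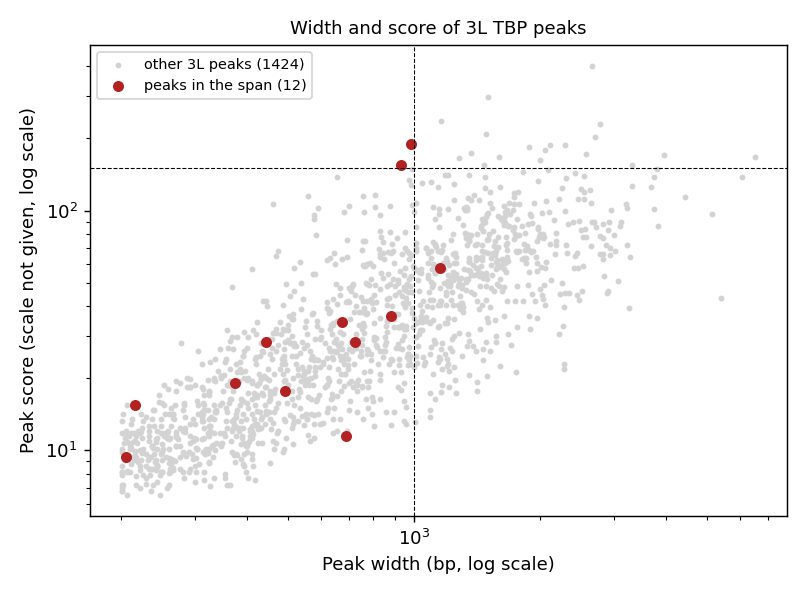
Width (x axis, bp, log scale) and deposited score (y axis, log scale) of 1436 TBP peaks on 3L, with the 12 peaks of the span in red and dashed lines at 1000 bp and a score of 150. Peaks 9 and 12 are the only points above 150 and left of 1000 bp, while the other 10 score at most 57.37. Peak 7 (690 bp, 11.52) is low for its width, with a score per kb at rank 1403 of the 1436.

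Peak 12 combined a high score with isolation. On 3L, 100 peaks had no other peak within 20 kb on either side, with a median score of 28.84. Peak 12 had the highest score of these, at 190.26, ahead of 148.44 for the second. Its gap of 20.0 kb on the upper side lies just past that limit. With a limit of 10 kb, 208 peaks of 3L counted as isolated and peak 12 again ranked first. On the 5 long arms together it was at position 4 of 395 peaks isolated by 20 kb. Of the 21 peaks of 3L scoring at least 150, the next most isolated lay 9.58 kb from its nearest neighbour. The first rank at 10 kb therefore rests on the same values as that at 20 kb and adds no separate evidence. The limit of 20 kb too was set after the values had been seen.

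**Figure D3:**
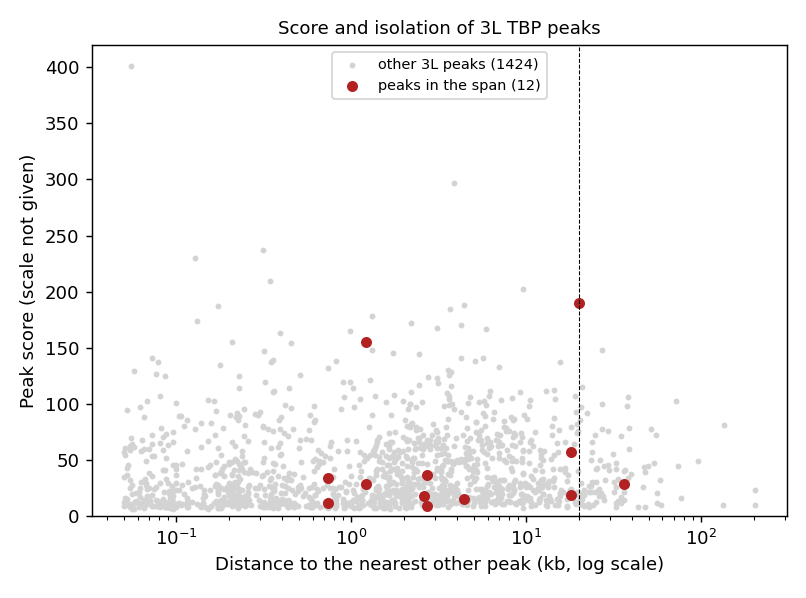
Distance to the nearest other TBP peak (x axis, kb, log scale) and deposited score (y axis) for the peaks of 3L, with the 12 peaks of the span in red and a dashed line at 20 kb. Peak 12 is the highest point right of the line, at 190.26, and peak 9 lies 1.21 kb from its neighbour.

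The stretch without a listed peak between peaks 8 and 9 ran from 18266171 to 18390959, or 124789 bp. It ranked at position 27 of 1435 gaps on 3L, whose median was 4904 bp and whose longest was 312023 bp. Among single gaps it was thus unusually long, at percentile 98.2. By window it was less unusual, since 19 of 83 windows of equal length held an empty stretch as long (22.9%). On 3L, 39 gaps reached 100 kb. Those 39 gaps were bordered by 74 peaks with a median score of 28.23. Of the 74, 3 scored at least 150, one of them peak 9, where 21 of the 1436 peaks of 3L did (1.46%). The count of 3 is small, and the limit of 150 was chosen after the values had been seen. Next in length within the span came the gaps of 36.1 kb before peak 8, 35.8 kb before peak 12 and 34.6 kb after peak 2. Of the 11 gaps between members, 4 reached 30 kb (36.4%), as did 15.1% of the gaps on 3L. The count is small, and the limit of 30 kb was not planned. It lies just under the gaps of 34.6, 35.8 and 36.1 kb. The median gap between members was 4661 bp, close to that of the arm. Gaps of at least 30 kb took up 79.8% of the span, against a median of 64.7% over 83 other windows of equal length. As large a share was found in 20 of the 83 (24.1%), so by window the span was not unusual here. An empty stretch here means only that no peak was listed, and with the depth unknown a weak signal cannot be told from none.

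Set beside 83 non-overlapping windows of the same length on 3L, the span was on the sparse side but within the usual range. Its 12 peaks compare with a window median of 18 (range 1 to 47), and 27 windows held as few or fewer (32.5%). Peaks covered 2.68% of it, against a window median of 5.20%, and 13 of the 83 were covered as little. The longest empty stretch was as long in 19 windows (22.9%). The windows include the peak-poor centromere end of 3L. Without 2 Mb at that end, 76 windows remained. Of these, 20 held as few peaks (26.3%), 9 were covered as little (11.8%) and 15 had as long an empty stretch (19.7%). The highest score, by contrast, was near the upper end. A peak scoring 190.26 or more was found in 6 of 83 windows (7.23%), against a median highest score of 107.41, and 1 peak that crosses a window bound was counted in both of its windows. A pair of peaks scoring at least 150 was found in 5 of 83.

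The span combined a long empty stretch with a high score. Among the 19 windows with an empty stretch as long, the highest score was 167.08 and the median of the highest scores was 96.94. None of these 19 had a peak as strong as peak 12, where 6 of all 83 windows did (7.23%). With only 19 windows, this is near the share over all windows. Of the 27 windows with as few peaks, 1 had a stronger peak (296.55) and 1 had a pair scoring at least 150. Over all 83 windows, 5 had such a pair (6.02%), so these counts too are near the shares over all windows. This combination was noticed in these data and then counted in them, so it is a description and was not tested.

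**Figure D4:**
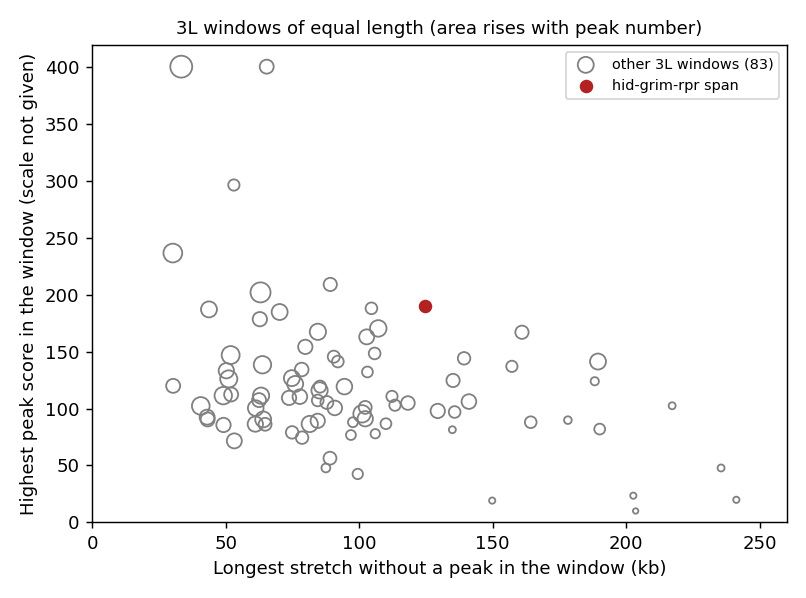
The longest stretch without a TBP peak (x axis, kb) and the highest deposited score (y axis) in 84 windows of 3L of equal length, where the symbol area rises with the number of peaks and the span is in red. The span, at 125 kb and 190.26, lies above all 19 windows with an empty stretch as long.

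The spans of equal length on either side held similar numbers of peaks, 15 before and 11 after. Neither held a peak scoring at least 150, which was usual: over the 83 windows, the median and the upper quartile of the number of such peaks were both 0. The highest score was 56.32 in the span before and 137.09 in the one after. The median scores were 18.36 and 20.44, against 28.43 for the 12 peaks of the span. A median score as high as that of the span was found in 41 of the 83 windows (49.4%), so the flanks were low rather than the span high. Median widths were 428 and 545 bp, against 682.5 bp. The coverage of 3.05% and 3.10% was close to the 2.68% of the span. The longest stretch without a peak was 89.0 kb before and 157 kb after, where the median over the 83 windows was 87.9 kb.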

How the data were processed

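One list of TBP peaks in GFF version 3 was analysed for all 4 libraries. Its coordinates are those of FlyBase release 5 per the file headers, and each line names MACS, a peak caller, as its source. BWA, MACS2, CASAVA (versions 1.7.0.2 and 1.7.0.3) and the build BDGP5 appear in the submitters' processing notes, with no roles. The calling threshold, the handling of duplicate reads and any pooling of replicates were not given in the sources used. The authors deposited a score for each peak without a scale. Whether libraries came from separate collections is not stated.

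Peaks on 3L were read as listed. Windows of the span's length were tiled outward from it between the first and last 3L peak, and each peak counted wherever it overlapped. Counting was checked on 200 simulated arms with peaks of equal width. No simulated peak crossed a bound of the span, so the treatment of peaks that cross the span's bounds was not checked. All 12 peaks are named, as are the nearest outside and the longest gaps. The span and measures were chosen with earlier results of these data known. The planned motif search was not run, since no sequence was used here. Alternatives varied windows, peaks and bounds. The software was pandas 2.3.3, numpy 2.4.6, matplotlib 3.10.9 and scipy 1.17.1 under Python 3.11.15.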

Additional observations from a re-analysis of the deposited data

How the results depend on the processing

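No paired analysis was possible because the list carries no values per library, nor could single replicates be left out. Of 66 values recomputed under alternatives (57 of them planned), 62 stayed within set bounds. The bounds were the exact 95% binomial interval for shares, the interval of the median for medians, and 1.5 times for counts and lengths. This count overstates stability, since some values could hardly move. When peaks were chosen by centre, coverage and empty stretches were still taken from overlap. Merging peaks or shifting the edges left the longest gap at 124789 bp. The intervals of the medians were wide. Using only peaks above the median score of the list left 5 peaks in the span, 1.60% of it covered and a median score of 57.37, which is the upper bound of its interval; fewer and stronger peaks follow from that selection. Without the 2 peaks scoring at least 150, an alternative chosen after seeing the data, 20.5% of windows held as few peaks, and 90.4% had as high a best score, where the removal itself lowers the best score. Narrowing the span by 20 kb at each edge removed peaks 1 and 12 and left 10, and 13.5% of windows then had as high a best score. Unknown depth limits every statement on weak or missing peaks.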
